A study of Mus musculus with 9 samples.

Results

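Tuft cells are rare chemosensory cells of the intestinal epithelium. They taste the lumen through G protein-coupled receptors and the cation channel Trpm5, develop under the transcription factor Pou2f3, and are the main epithelial source of the cytokine IL-25, which acts on type 2 innate lymphoid cells through a receptor made of Il17rb and Il17ra. They also make leukotrienes and prostaglandins, and the enzymes for these lipids are shared with neutrophils, macrophages and mast cells. The 8 genes described here were chosen as tuft cell genes: Dclk1, Trpm5, Pou2f3, Il25, Alox5, Alox5ap, Avil and Sh2d6. They are 8 of the 27719 genes in the count table and were found by their symbols, and each had at least 1 count.

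The colon of 9 C57BL/6J mice was sequenced, 1 library per mouse, and each of the 3 groups held 3 mice. The control group drank distilled water. The DSS group received 2.5% dextran sodium sulfate (DSS), a polymer that injures the colonic epithelium, in drinking water for 7 days. The DSS + EA group received the same DSS and, after 5 days of modeling, electroacupuncture (EA) at both Zusanli (ST36) points for 30 minutes a day at 2 Hz and 0.2 mA over 5 days. The control and DSS groups were held for the same 30 minutes without EA, so that handling was shared by all the mice. Age and sex are not given in the sources used here. The p-values measure the spread between these mice.

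Full-length cDNA was read on a Nanopore PromethION, and each library held between 2627695 and 4235576 gene counts. Expression is given as counts per 1000000 counts (CPM), in which a single count was worth about 0.3 CPM, so that most of the 8 genes were measured by a handful of reads. In bulk colon, fewer tuft cells and less RNA per tuft cell cannot be told apart. Some libraries stood apart from others of their group. Pancreatic acinar genes took 2.76% and 1.4% of the counts of DSS + EA mice 2 and 3, against 0.0522% in DSS + EA mouse 1 and at most 0.0252% in the other groups. DSS mouse 1 differed from DSS mice 2 and 3 in the neutrophil genes, at 4386 CPM in all against 22900 and 26120 CPM. The epithelial genes that mark the tissue summed to between 5139 and 5927 CPM in the control group, 1050 and 4051 CPM in the DSS group and 4222 and 5456 CPM in the DSS + EA group.

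The sequences just upstream of 4 tuft cell genes are shown, because Pou2f3 is a POU factor and factors of this family bind an octamer, ATGCAAAT. Trpm5 and Sh2d6 are the members that fell with DSS, Avil is the member with the shorter form of the motif, and 1810046K07Rik, which encodes a coactivator of Pou2f3, holds the octamer more than once in 1 of its 2 promoters. Each is 250 bases of RefSeq sequence (GRCm38.p6), 5′ to 3′ on the strand of the gene and ending at its start, with matches to the motif in capitals.
Trpm5, chr7:143094643-143094892, minus strand: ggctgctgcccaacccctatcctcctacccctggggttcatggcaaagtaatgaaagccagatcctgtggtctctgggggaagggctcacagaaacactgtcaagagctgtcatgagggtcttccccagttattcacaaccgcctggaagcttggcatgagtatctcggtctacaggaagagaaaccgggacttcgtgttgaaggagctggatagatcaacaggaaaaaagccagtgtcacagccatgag
Sh2d6, chr6:72520037-72520286, minus strand: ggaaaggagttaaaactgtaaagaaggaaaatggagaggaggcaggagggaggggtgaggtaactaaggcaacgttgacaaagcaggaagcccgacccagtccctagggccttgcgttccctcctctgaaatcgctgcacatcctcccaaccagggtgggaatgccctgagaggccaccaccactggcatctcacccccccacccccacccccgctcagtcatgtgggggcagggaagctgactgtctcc
Avil, chr10:127000459-127000708, plus strand: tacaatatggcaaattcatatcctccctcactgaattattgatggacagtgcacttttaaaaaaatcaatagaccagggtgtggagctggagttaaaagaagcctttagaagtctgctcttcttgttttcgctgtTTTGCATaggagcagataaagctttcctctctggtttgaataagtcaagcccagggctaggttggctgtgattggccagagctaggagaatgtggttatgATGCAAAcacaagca
1810046K07Rik, chr9:51328919-51329168, minus strand: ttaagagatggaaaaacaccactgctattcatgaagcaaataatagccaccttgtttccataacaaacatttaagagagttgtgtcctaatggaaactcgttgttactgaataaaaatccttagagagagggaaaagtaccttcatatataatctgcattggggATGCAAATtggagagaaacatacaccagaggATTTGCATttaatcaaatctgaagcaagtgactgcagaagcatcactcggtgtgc

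The octamer was searched on both strands, as ATGCAAAT or ATTTGCAT, in the 6 promoters that the RefSeq table holds for 5 of the 8 genes (2 for Dclk1 and 1 each for Sh2d6, Alox5, Trpm5 and Avil). None of the 6 held it, and 1.6% of all 32851 promoters of the same length did. The 7-base form, ATGCAAA or TTTGCAT, was added after the sequences were seen. It was present in the Avil promoter, on each strand once, and in 4.12% of all promoters. The Sh2d6 stretch lies inside the longest gene model of Sh2d6 but outside its exons. In 47 promoters of 38 further tuft cell genes, 6 held the octamer: those of Sucnr1, Hpgds, 1810046K07Rik, Nradd, Kctd12 and Itpr3. In the 1810046K07Rik promoter shown the matches ended 78 and 47 bases before the start, and the other promoter of that gene, chr9:51312670-51312919, held none. These matches are letters in a window and describe neither a binding site nor a cause.

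The 8 genes moved in opposite directions with DSS. Compared with the control group, Trpm5 and Sh2d6 were lower in the DSS group, and Alox5ap and Alox5 were higher. With EA, Alox5ap and Alox5 were lower than in the DSS group, whereas Trpm5 and Sh2d6 did not pass the test. In the fit with a filter on low counts, only Dclk1, Alox5 and Alox5ap of the 8 genes were tested among 12566 genes, and Alox5 passed the filter through its level in the DSS group. The other 5 were tested in a fit without that filter, on the 22099 genes with a count. Between DSS and control, 2 of the 3 genes tested passed at an adjusted p under 0.05, both higher, where 21.5% of all genes tested were called higher and 19.5% lower. In the fit without the filter, 2 of the 8 genes were called higher and 2 lower, against 15.3% and 12.7% of all genes.

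Trpm5, the calcium-activated cation channel of taste and tuft cells, was read 4, 7 and 4 times in the 3 control mice, 0 times in each DSS mouse and 0, 1 and 1 times in the DSS + EA mice. These counts were 1.01, 2.31 and 1.52 CPM in the control group and 0, 0.37 and 0.315 CPM in the DSS + EA group. Every control mouse lay above every mouse of the other groups. Compared with the control group, it was at least 5.71-fold lower in the DSS group, computed against a floor of 3 counts over the DSS group (adjusted p = 0.00861, edgeR's quasi-likelihood test without the filter). This fold, like each fold given below as at least, takes the control counts as exact. With their counting error it could be smaller. A count of 0 still allows up to 0.958, 0.647 and 0.929 CPM in DSS mice 1, 2 and 3, by the same 3 counts per library and for counting error only. Trpm5 passed without each mouse in turn. Against the control group, the 2 counts of the DSS + EA group against 15 gave a ratio of 0.14 (exact 95% interval 0.0155 to 0.601, counting error only), and the edgeR test did not pass (log2 fold change -2.63, SE 1.01, adjusted p = 0.277). The gene lies at chr7:143069153-143094642 on the minus strand (GRCm38) and shares exon bases with Tssc4 on the other strand.

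Sh2d6, an SH2 domain adaptor protein found in tuft cells, was read 16, 8 and 3 times in the control mice, 1, 3 and 1 times in the DSS mice and 2, 1 and 4 times in the DSS + EA mice. The mean level was 2.61 ± 1.45 CPM in control mice, against 0.425 ± 0.192 CPM with DSS and 0.744 ± 0.461 CPM with DSS + EA (SD, n = 3 mice each). The control and DSS groups did not overlap in CPM, while DSS + EA mouse 3, at 1.26 CPM, lay above control mouse 3, at 1.14 CPM. Control mouse 3 and DSS mouse 2 had 3 reads each, so only the scaling to library size set those 2 mice apart. Compared with the control group, Sh2d6 was lower in the DSS group (log2 fold change -2.53, SE 0.71, adjusted p = 0.0166, edgeR without the filter). The call rested on control mouse 1, the highest of the 9. Without that mouse the log2 fold change was -2.05 and the adjusted p was 0.112. Between DSS + EA and DSS the log2 fold change was 0.79 (SE 0.85, adjusted p = 0.528, edgeR). The gene is at chr6:72513641-72521707, minus strand.

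Pou2f3, the transcription factor that tuft cells need to form, was near the limit of the depth. It was read 2, 1 and 1 times in the control mice, 0 times in each DSS mouse and 1, 0 and 1 times in the DSS + EA mice. All the control mice had a read and no DSS mouse did. Against the floor of 3 counts the level was 1.52-fold lower in the DSS group. The counting error of the 4 control reads is left out, so this is not a lower bound. The test did not pass (adjusted p = 0.101, edgeR without the filter). A fall of the size seen for Trpm5 could not be measured from these counts. Pou2f3 is at chr9:43123939-43210369, minus strand. Il25, the cytokine by which tuft cells call on type 2 lymphoid cells, was read once each in control mice 1 and 2 and in no other mouse. Both sums were under the floor, so no fold is given for Il25 (chr14:54932695-54935837, plus strand).

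Avil encodes advillin, an actin-binding protein of the tuft cell's microvilli. It was read 10, 8 and 8 times in the control mice, 4, 11 and 8 times in the DSS mice and 7, 4 and 5 times in the DSS + EA mice. Its CPM was 2.73 ± 0.273 in control mice, against 2.04 ± 0.665 with DSS and 1.72 ± 0.341 with DSS + EA (SD, n = 3). Each control mouse was above each DSS and DSS + EA mouse, by a small margin, as the lowest control mouse had 2.52 CPM and the highest DSS mouse 2.48 CPM. The difference did not pass between DSS and control (log2 fold change -0.43, SE 0.46, adjusted p = 0.504) or between DSS + EA and control (-0.60, SE 0.49, adjusted p = 0.68) in edgeR without the filter. The ratio of DSS to control counts was 0.774 with an exact 95% interval of 0.422 to 1.41. Avil (chr10:127000709-127020994, plus strand) shares exon bases with Tsfm on the other strand, and the strand setting of the counting is not given in the sources used here, so reads of the pair cannot be told apart.

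Dclk1, a microtubule-associated kinase and the most used tuft cell marker of the mouse intestine, is also made by enteric neurons. Its counts were 22, 10 and 12 in the control mice, 10, 42 and 33 in the DSS mice and 17, 12 and 8 in the DSS + EA mice. In CPM this was 4.47 ± 1.13, 7.49 ± 3.77 and 4.03 ± 1.36 (SD, n = 3). DSS mice 2 and 3, at 9.05 and 10.2 CPM, were the highest of the 9 and DSS mouse 1, at 3.19 CPM, lay below every control mouse. Dclk1 did not pass in any comparison, with a log2 fold change of 0.74 (SE 0.45, adjusted p = 0.215) for DSS against control and -0.90 (SE 0.46, adjusted p = 0.149) for DSS + EA against DSS in edgeR. DSS mouse 1 decided this. Without it, Dclk1 was called higher with DSS (1.06, adjusted p = 0.0355) and lower with EA (-1.22, adjusted p = 0.0229). The 7 enteric neuron genes, summed, ranged from 76.9 to 88.1 CPM in the control group, 130 to 141 CPM in the DSS group and 51.6 to 67.4 CPM in the DSS + EA group, so that all DSS mice lay above the others. Of the 4 tested, 2 rose with DSS and 3 were lower with EA than with DSS, against 21.5% and 18.3% of all genes tested. The part of these cells in the Dclk1 level was not tested. Dclk1 (chr3:55242364-55539068, plus strand) shares exon bases with Gm42609 and Gm21954 on the other strand.

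Alox5ap, the protein that presents arachidonic acid to 5-lipoxygenase, had the widest range of the 8 genes. It was read 56, 61 and 34 times in the control mice, 317, 2294 and 2947 times in the DSS mice and 128, 98 and 104 times in the DSS + EA mice. The level was 14.1, 20.1 and 12.9 CPM, then 101, 494 and 912 CPM, then 38.6, 36.3 and 32.7 CPM. The 3 groups did not overlap, with the DSS + EA mice between the others. Compared with the control group, Alox5ap was 31.9-fold higher in the DSS group (log2 fold change 4.99, SE 0.68, adjusted p = 0.000487, edgeR), and compared with the DSS group it was 14-fold lower in the DSS + EA group (-3.81, SE 0.64, adjusted p = 0.00221). Between DSS + EA and control the log2 fold change was 1.19 (SE 0.61), which did not pass in the fit of all 9 mice (adjusted p = 0.362) and passed when only these 2 groups were fitted (1.20, adjusted p = 0.00866) or when DSS mouse 1 was left out (1.19, adjusted p = 0.0318). Alox5ap is at chr5:149264767-149288153, plus strand, and shares exon bases with the antisense gene Gm19719.

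Alox5, 5-lipoxygenase itself, was read 4, 7 and 9 times in the control mice, 10, 33 and 43 times in the DSS mice and 3, 0 and 3 times in the DSS + EA mice. The level was 2.25 ± 1.21 CPM in control mice, against 7.87 ± 5.1 CPM with DSS and 0.617 ± 0.534 CPM with DSS + EA (SD, n = 3). DSS mouse 1, at 3.19 CPM, lay below control mouse 3, at 3.42 CPM, so those groups overlapped. The DSS + EA mice were below all others, at 0.906, 0 and 0.944 CPM. In the fit with the filter, which it passed through its level in the DSS group, Alox5 was 3.61-fold higher with DSS (log2 fold change 1.85, SE 0.64, adjusted p = 0.0424, edgeR). That call was lost without any of 7 of the 9 mice (every one but DSS mouse 1 and DSS + EA mouse 2), where the log2 fold change was between 1.29 and 2.23 and the adjusted p between 0.0577 and 0.156. Without the filter the log2 fold change was 1.81 (SE 0.61, adjusted p = 0.0381), and the call was lost without control mouse 1 or 2 or DSS mouse 2 or 3. Compared with the DSS group, Alox5 was lower in the DSS + EA group with the filter (-3.53, SE 0.77, adjusted p = 0.00742) and without it (-3.45, SE 0.73, adjusted p = 0.00404). Both passed without each mouse in turn. Against the control group the log2 fold change was -1.68 (SE 0.89, adjusted p = 0.383). Alox5 lies at chr6:116410077-116461178, minus strand.

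**Figure D1:**
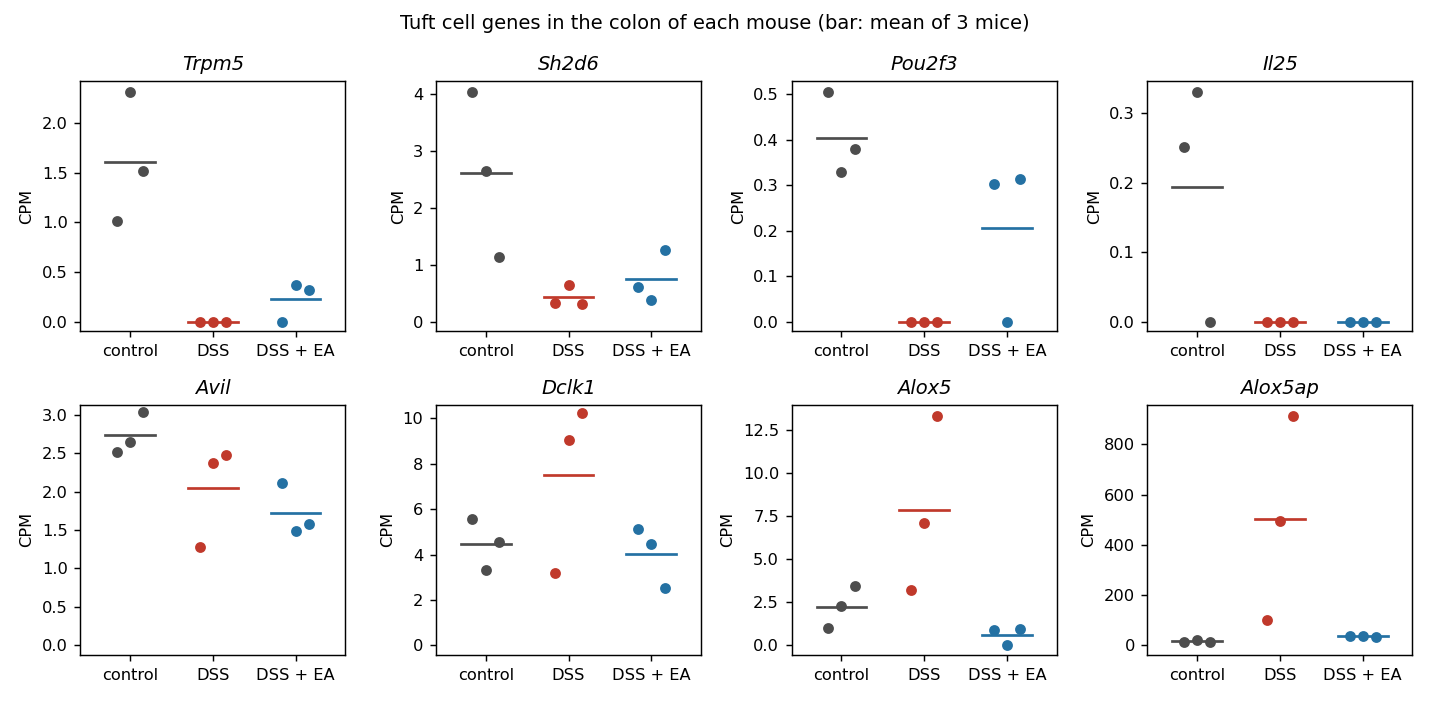
Level of each of the 8 tuft cell genes in CPM (vertical axis, linear, a separate scale for each gene) in the 3 mice of each group, as points, with a bar at the group mean. Trpm5 and Pou2f3 are at 0 in all 3 DSS mice, while Alox5ap reaches 101 to 912 CPM there.

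For DSS + EA against DSS, 2 of the 3 genes tested passed, both lower, where 18.3% of all genes tested were called lower and 17.2% higher. Without the filter the same 2 of the 8 genes were called lower and 0 higher, against 11.7% and 11.2%. For DSS + EA against control, 0 genes passed in edgeR with the filter (3% of all genes called higher, 0.637% lower) or without it (2.19% and 0.403%). At an unadjusted p under 0.05 the counts were 0 of 3 with the filter and 3 of 8 without it (Alox5ap, Sh2d6 and Trpm5), and DESeq2 called 0. The shares of all genes just given are for the adjusted p. No share was counted at the unadjusted p, so these counts cannot show an excess. By range alone, 4 of the 8 genes were lower in every DSS mouse than in every control mouse (Trpm5, Pou2f3, Avil and Sh2d6) where 19.1% of the 22099 genes with a count were, and Alox5ap was higher in every DSS mouse, against 22.3%. Avil lay apart by 2.52 against 2.48 CPM only, and Pou2f3 by 2, 1 and 1 control reads against 0. For Sh2d6, control mouse 3 and DSS mouse 2 had 3 reads each and differed only by the scaling to library size. The shares of all genes include genes with too few reads to lie apart, so they are a rough measure. Alox5 and Alox5ap were lower in every DSS + EA mouse than in every DSS mouse, against 20.9%. Trpm5, Pou2f3, Alox5 and Avil were lower in every DSS + EA mouse than in every control mouse, against 11.3%, and Alox5ap was higher, against 12.2%. For Pou2f3, control mice 2 and 3 and DSS + EA mice 1 and 3 had 1 read each, so only the scaling to library size set those mice apart.

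Alox5ap and Alox5 are made by neutrophils, macrophages and mast cells as well as by tuft cells, and the lists of those cells were read beside them. The 8 neutrophil genes, summed, were at 133, 157 and 22.4 CPM in the control mice, 4386, 22900 and 26120 CPM in the DSS mice and 1451, 1181 and 1574 CPM in the DSS + EA mice. All 6 that were tested were higher with DSS and 4 of the 6 were lower with EA than with DSS, against 21.5% and 18.3% of all genes tested. The 9 macrophage genes summed to between 513 and 536 CPM in control mice, 1611 and 3015 CPM with DSS, and 1028 and 1180 CPM with DSS + EA. Of these, 8 of 9 were higher with DSS and 6 of 9 lower with EA in the fit with the filter, against 21.5% and 18.3% of all genes. For both lists, as for Alox5ap, the DSS group was highest, the DSS + EA group was between, and DSS mouse 1 was the lowest of the DSS mice. The 8 mast cell genes summed to 21.9 to 32.7 CPM in the control group, 13 to 14.2 CPM in the DSS group and 14.2 to 25.2 CPM in the DSS + EA group, with Ms4a2 at 0 in all the mice. Most of that sum was Kit, at 24.2 ± 6.11, 6.34 ± 0.462 and 11.9 ± 5.13 CPM (SD, n = 3), which was lower with DSS. Kit is also made by the interstitial cells of Cajal. Of the mast cell proteases, Cma1 had 14 counts in control mice, 50 with DSS and 25 with DSS + EA, Mcpt1 had 4, 14 and 13, Mcpt2 had 1, 10 and 10, Cpa3 had 1, 5 and 5, and Tpsb2 had 8, 2 and 6. None of these 5 passed with DSS. Eosinophil genes were also few, at 3.53 to 9.24 CPM, 1.24 to 3.88 CPM and 4.23 to 6.61 CPM, with Epx and Ear1 at 0. The 1 gene tested did not pass in edgeR. The part of these cells in the level of Alox5ap and Alox5 was not tested.

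**Figure D2:**
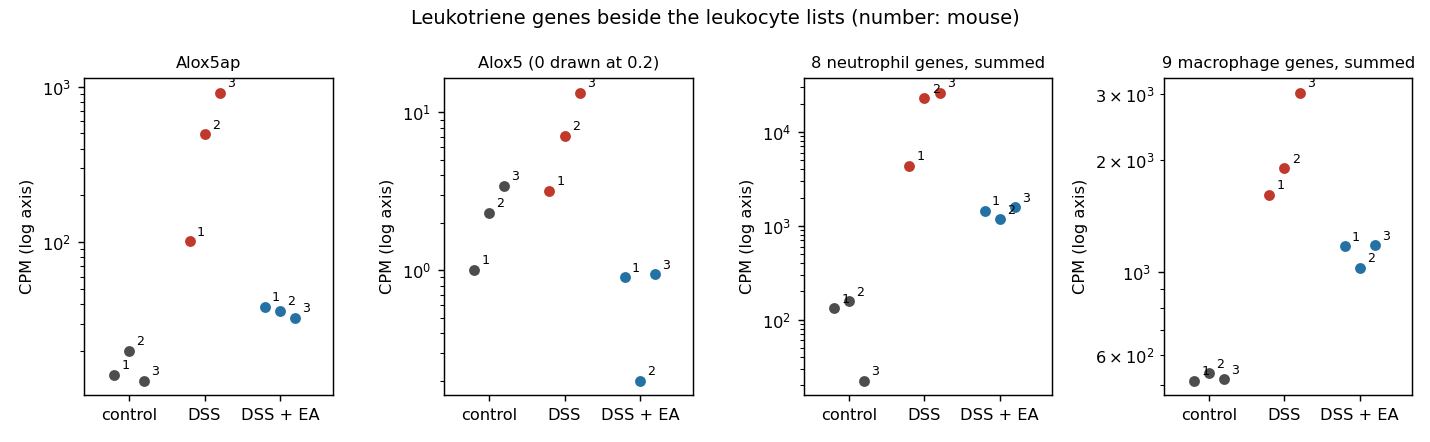
Alox5ap, Alox5, the sum of 8 neutrophil genes and the sum of 9 macrophage genes in CPM on log axes, 1 point per mouse with the number of the mouse beside it. Alox5ap and both sums are highest in the DSS mice and intermediate in the DSS + EA mice, whereas Alox5 in the DSS + EA mice is below the control mice (DSS + EA mouse 2, with a count of 0, is drawn at 0.2 CPM).

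The other enzymes and receptors of the leukotriene pathway were read next. Of 12 entries for 11 symbols, 8 were tested, 2 were higher and 1 lower with DSS, shares near the 21.5% and 19.5% of all genes, and the median log2 fold change was -0.12 against 0.02 over all genes tested. Without DSS mouse 1 the counts were 4 higher and 3 lower, and without DSS + EA mouse 3 they were 4 higher. Pla2g4a, the phospholipase that frees arachidonic acid, did not pass with DSS (log2 fold change -0.46, SE 0.18, adjusted p = 0.07) and was higher with EA than with DSS alone (0.65, SE 0.18, adjusted p = 0.0214, edgeR), a call lost without DSS mouse 2 or DSS + EA mouse 1 or 3 (adjusted p 0.0574 to 0.0824). Lta4h, which makes leukotriene B4, was at 64.5 ± 1.34 CPM in control mice, 54.8 ± 13.6 CPM with DSS and 68.2 ± 6.46 CPM with DSS + EA (SD, n = 3) and passed in no comparison. Ltc4s, the enzyme that joins glutathione to leukotriene A4 in tuft cells and mast cells, was at 7.63 ± 1.39, 6.41 ± 2.18 and 5.11 ± 1.52 CPM and also passed in none.

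The later steps differed from each other. Ggt5, which turns leukotriene C4 into D4, rose with DSS from 2.63 ± 1.16 to 14.6 ± 5.27 CPM (log2 fold change 2.44, SE 0.44, adjusted p = 0.00208, edgeR). Dpep1, a dipeptidase of the epithelium, fell from 261 ± 51.9 to 62.6 ± 21.9 CPM (-2.06, SE 0.32, adjusted p = 0.001) and was at 155 ± 54.4 CPM with EA (1.31 against DSS, SE 0.32, adjusted p = 0.0111). Dpep2, a dipeptidase of leukocytes, has more than one gene model with this symbol in the count table, and reads may be split between them, so its counts are uncertain. One of them was read 0, 2 and 0 times in the control mice, 38, 98 and 107 times in the DSS mice and 0, 0 and 14 times in the DSS + EA mice, and was called higher with DSS and lower with EA. This model passed the filter through its level in the DSS group. The other did not pass. Ltb4r1, the leukotriene B4 receptor of neutrophils, was tested without the filter only. It had 3, 2 and 0 counts, then 4, 61 and 47, then 4, 5 and 4, and was higher with DSS (4.11, SE 0.83, adjusted p = 0.00215) and lower with EA (-2.66, SE 0.71, adjusted p = 0.0157, edgeR), the latter lost without DSS mouse 2 or DSS + EA mouse 1 or 3 (adjusted p 0.0529 to 0.0715). For DSS + EA against control, 0 of the 8 passed in edgeR or DESeq2, and 2 (Ggt5 and Dpep1) had an unadjusted p under 0.05, for which no share of all genes was counted.

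Since the 8 genes hold few counts, 4 lists of further tuft cell genes were read in the same fits. Of the 46 symbols found, 45 had a count and 25 passed the filter. In the fit without the filter, 11 of the 45 were lower and 8 higher with DSS, against the 12.7% and 15.3% of all genes given above, and the median log2 fold change was -0.44 against 0.09 over all genes. With the filter, 6 of 25 were lower and 7 higher, with a median of 0.41 against 0.02 over all genes tested. The medians differ in sign between the fits. Single mice moved these counts: without the filter 4 and 5 were higher when control mouse 2 or 3 was left out, and with it 11 were higher without DSS mouse 1. Scaled to the epithelial genes instead of to the whole library, 4 were lower and 14 higher without the filter, against 2.04% and 43.7% of all genes in that fit.

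Some genes of the chemosensory apparatus were called lower with DSS, all at low counts. In the signalling list, 3 of 10 genes were lower and 0 higher without the filter, against 12.7% and 15.3% of all genes. With the filter, 0 of the 2 tested passed. Gnat3, the G protein alpha subunit gustducin, was read 2, 7 and 5 times in the control mice, 0 times in each DSS mouse and 0, 1 and 0 times in the DSS + EA mice, and was at least 5.33-fold lower in the DSS group (adjusted p = 0.0153, edgeR without the filter). Ffar3, a short-chain fatty acid receptor, was read 8, 3 and 4 times, then 0, 0 and 0 times, then 1, 1 and 3 times, and its level in the DSS group was at least 5.71-fold lower (adjusted p = 0.00681). Rgs13, a regulator of G protein signalling, was read 5, 3 and 2 times, then 0, 0 and 0 times, then 0, 2 and 0 times (at least 3.81-fold lower, adjusted p = 0.0328). Gnat3 lost its call without control mouse 2 (adjusted p = 0.0587) or DSS mouse 2 (0.0518), and Rgs13 lost it without any of 5 mice and in DESeq2 (0.0853). The phospholipase Plcb2 and the calcium channel Itpr3, which act between receptor and Trpm5, passed in no comparison, with Itpr3 at 12.3 ± 2.67, 7.6 ± 4.1 and 10.1 ± 1.7 CPM. Plcg2, a phospholipase also used by B cells and macrophages, was at 3.09 ± 0.676, 4.84 ± 3.19 and 1.93 ± 0.468 CPM and passed in none either.

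In the transcription list, 2 of 6 genes were lower and 0 higher with DSS without the filter, against 12.7% and 15.3% of all genes. 1810046K07Rik, whose promoter is printed above, was read 5, 10 and 6 times in the control mice, 0, 1 and 0 times in the DSS mice and 0, 3 and 0 times in the DSS + EA mice. The single read in the DSS group gave a ratio of 0.0417 to the control group (exact 95% interval 0.00101 to 0.259, counting error only; adjusted p = 0.0145, edgeR without the filter), and the call was lost without control mouse 2 (0.059). Spib, an ETS factor of tuft cells, M cells and B cells, fell from 2.98 ± 1.19 to 0.988 ± 0.0791 CPM with DSS (log2 fold change -1.57, SE 0.46, adjusted p = 0.0207) and rose to 3.97 ± 1.27 CPM with EA (1.96, SE 0.45, adjusted p = 0.00867). Its fall lost the call without control mouse 1 (adjusted p = 0.107) and, by a small margin, without DSS mouse 2 or 3. The 8 lymphocyte genes, which mark other cells that make Spib, were at 29.3 to 38.9 CPM in the control group, 22.3 to 36 CPM in the DSS group and 43.7 to 82.1 CPM in the DSS + EA group. Of the 5 tested, 2 (Ms4a1 and Cd79b, both of B cells) were higher with EA than with DSS, against 17.2% of all genes tested. The part of lymphocytes in the level of Spib was not tested. Hmx2, Gfi1b and Colca2, which encodes another coactivator of Pou2f3, did not pass.

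Among the mediator genes, Ptgs1, the constitutive cyclooxygenase, rose from 15.6 ± 1.43 to 30.6 ± 4.7 CPM with DSS (log2 fold change 0.97, SE 0.23, adjusted p = 0.00783) and was at 20.9 ± 4.47 CPM with EA (-0.56 against DSS, SE 0.22, adjusted p = 0.0767). Hpgds, the prostaglandin D2 synthase of blood and tuft cells, and Tslp, an epithelial alarmin, passed in no comparison. Chat, which makes the acetylcholine of tuft cells, had a single count each in the control and DSS groups and 0 with EA.

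The surface and structure list divided. Sh2d7, an adaptor related in its SH2 domain to Sh2d6, was read 11, 6 and 5 times in the control mice, 0 times in each DSS mouse and 2, 1 and 1 times in the DSS + EA mice. It was at least 8.38-fold lower in the DSS group (adjusted p = 0.00177, edgeR without the filter), and every DSS + EA mouse lay above the DSS mice and below the control mice. Ly6g6f, a surface protein, was read 13, 18 and 10 times, then 2, 3 and 0 times, then 3, 2 and 0 times (log2 fold change -3.16, SE 0.71, adjusted p = 0.00656). Ly6g6f passed the filter through its level in the control group, and was also called lower without the filter. Inpp5j, an inositol polyphosphate phosphatase, fell from 9.29 ± 2.3 to 1.03 ± 0.508 CPM with DSS (-3.15, SE 0.51, adjusted p = 0.00114) and was at 4.32 ± 2.14 CPM with EA (2.05 against DSS, SE 0.54, adjusted p = 0.0156). The latter call was lost without DSS mouse 2 or DSS + EA mouse 1 or 2 (adjusted p 0.052 to 0.0567).

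Atp2a3, a calcium pump also found across the colonic epithelium, fell from 135 ± 2.12 to 41 ± 33.2 CPM (-1.73, SE 0.47, adjusted p = 0.0149), and Ildr1, a tight junction protein, from 78.5 ± 16.4 to 31.8 ± 21.8 CPM (-1.30, SE 0.45, adjusted p = 0.0421). Atp2a3 lost the call without DSS mouse 2 (adjusted p = 0.0577) and Ildr1 without any of 7 mice, every one but DSS mouse 1 and DSS + EA mouse 1 (0.0504 to 0.118). Cd24a, a surface glycoprotein of many epithelial cells and leukocytes, fell from 330 ± 60.9 to 177 ± 19.2 CPM (-0.90, SE 0.19, adjusted p = 0.00442), but scaled to the epithelial genes its log2 fold change was 0.73, which is 0.81 below the median of all genes on that scale. Against these, genes that tuft cells share with leukocytes rose. Fyb, an adaptor of T cells and myeloid cells, went from 5.87 ± 1.51 to 72.5 ± 70.2 CPM with DSS (3.63, SE 0.69, adjusted p = 0.00267), and Cd300lf, a receptor of myeloid and tuft cells, from 0.845 ± 0.7 to 24.9 ± 24.1 CPM (4.84, SE 0.96, adjusted p = 0.00346). Both were lower with EA than with DSS (-2.35, SE 0.63, adjusted p = 0.0175, and -3.36, SE 0.83, adjusted p = 0.0123), though Fyb lost that call without any 1 of the DSS + EA mice (0.0502 to 0.06). Cd300lf passed the filter through its level in the DSS group, and was also called in both comparisons without the filter. Bmx, a kinase of tuft cells, endothelium and myeloid cells, had 9, 6 and 4 counts, then 9, 40 and 26, then 4, 2 and 1, and was higher with DSS (1.69, SE 0.50, adjusted p = 0.0211) and lower with EA (-2.97, SE 0.58, adjusted p = 0.00253) without the filter, the rise being lost without any 1 control mouse or DSS mouse 2 or 3 (0.0529 to 0.0892). Matk, a tuft cell kinase, was at 4.71 ± 1.04, 2.25 ± 1.13 and 1.52 ± 0.278 CPM and did not pass (-1.01, SE 0.42, adjusted p = 0.0763), and Skap2, an adaptor of myeloid cells, was at 56.2 ± 11, 82.9 ± 20.6 and 81.4 ± 11.8 CPM and did not pass.

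**Figure D3:**
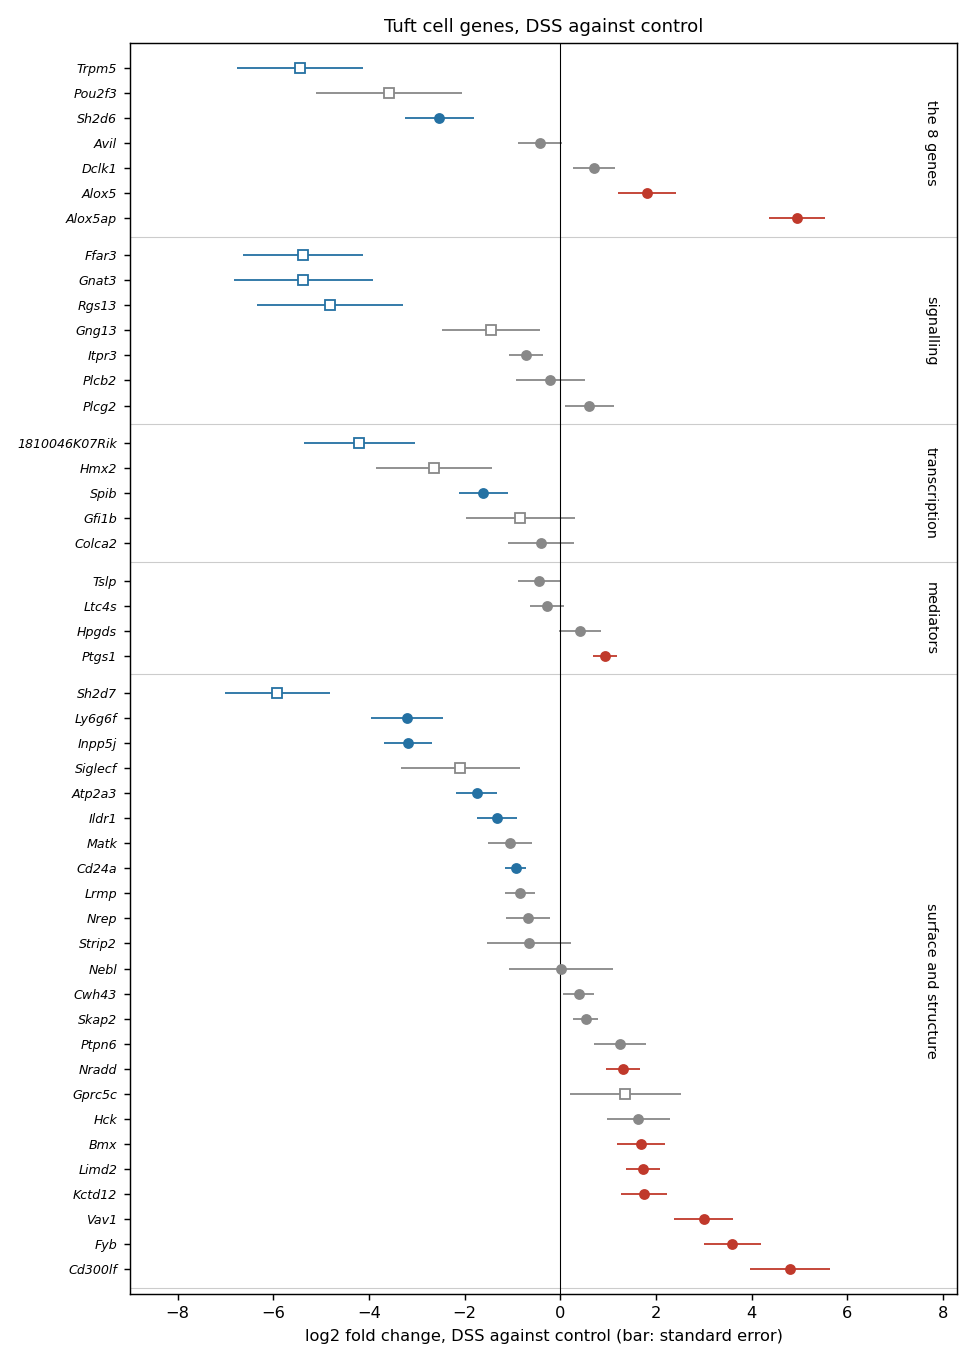
Log2 fold change of DSS against control (horizontal axis, bar: standard error) in the fit without a filter, for the tuft cell genes with more than 3 counts in either group, by list. Blue marks genes called lower, red genes called higher and grey those not called. Open squares mark genes with 3 counts or fewer in one of the groups, whose fitted values depend on the prior count. Trpm5, Gnat3, Ffar3 and Sh2d7 lie at the left, and Alox5ap, Cd300lf and Fyb at the right.

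Compared with the DSS group, 4 of the 25 further genes tested were higher in the DSS + EA group (Spib, Atp2a3, Ildr1 and Inpp5j) and 5 lower (Fyb, Nradd, Vav1, Cd300lf and Kctd12), shares near the 17.2% and 18.3% of all genes. The call of Atp2a3 (1.32, adjusted p = 0.0493) was lost without any of 8 of the 9 mice, every one but DSS mouse 1 (0.0666 to 0.145), with RLE (0.0502), with library totals (0.0544) and with a mean of at least 20 counts (0.0601). The counts moved with single mice: without DSS mouse 2 they were 1 higher and 3 lower, and with DSS mouse 1 left out 10 were lower. Without any 1 of the DSS + EA mice 3 were lower, and 1 and 2 were higher without DSS + EA mouse 1 and mouse 2. Gnat3, Ffar3, Rgs13, Sh2d7 and 1810046K07Rik had 1, 5, 2, 4 and 3 counts in the DSS + EA group as against 0, 0, 0, 0 and 1 in the DSS group, and none of them passed in that comparison. For DSS + EA against control, 0 of 25 passed in edgeR with the filter, where 6 had an unadjusted p under 0.05. Without the filter 0 of 45 passed, with 11 at an unadjusted p under 0.05, and DESeq2 called 0. No share of all genes was counted at the unadjusted p, so these counts cannot show an excess.

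The epithelium itself was lower in the DSS group, so the tuft cell genes were also set against it. Of the 10 epithelial genes, 5 fell with DSS, and 3 were higher with EA than with DSS, against 19.5% and 17.2% of all genes tested. All 7 goblet cell genes were lower with DSS (20870 to 35370 CPM in the control group, 924 to 7297 CPM in the DSS group) and 5 of them higher with EA (16680 to 17690 CPM), against the same shares of all genes. For the enteroendocrine cells, which are secretory and rare like tuft cells, 1 gene of 6 tested (Gcg) was lower with DSS, against 19.5% of all genes. The sum of these genes was at 413 to 573 CPM in control mice, 371 to 765 CPM with DSS and 510 to 786 CPM with DSS + EA. The counts of Trpm5, Pou2f3, Avil and Sh2d6 together were 32, 24 and 16 in the control mice, 5, 14 and 9 in the DSS mice and 10, 6 and 11 in the DSS + EA mice. Per 10000 counts of the epithelial genes this was 15, 15.4 and 10.3 in the control group, 3.94, 13.1 and 26.5 in the DSS group and 5.54, 5.26 and 7.21 in the DSS + EA group. The control and DSS groups overlapped on this scale, and DSS mouse 3, which had the fewest epithelial counts, was the highest of the 9.

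Most of the remaining counts in the DSS group were of Avil. With Trpm5, Pou2f3 and Sh2d6 alone, a sum made after the values were seen, the counts were 22, 16 and 8 in the control mice, 1, 3 and 1 in the DSS mice and 3, 2 and 6 in the DSS + EA mice. Per 10000 epithelial counts they were 10.3, 10.3 and 5.13, then 0.788, 2.8 and 2.95, then 1.66, 1.75 and 3.93. Each DSS and DSS + EA mouse lay below each control mouse. In the fit scaled to the epithelial genes, which moved the median log2 fold change of all genes for DSS against control up by 1.51, to 1.60, in the fit without the filter, Trpm5 remained called lower (adjusted p = 0.0316) while Sh2d6 did not pass (-1.28, SE 1.07, adjusted p = 0.328) and Avil turned in sign (1.12, SE 0.81, adjusted p = 0.25, edgeR). Relative to that median, Trpm5 was at -6.66, Sh2d6 at -2.88 and Avil at -0.48. Dclk1 was called higher on this scale (adjusted p = 0.00133), as were 43.7% of all genes, and was 0.87 above the median of all genes.

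**Figure D4:**
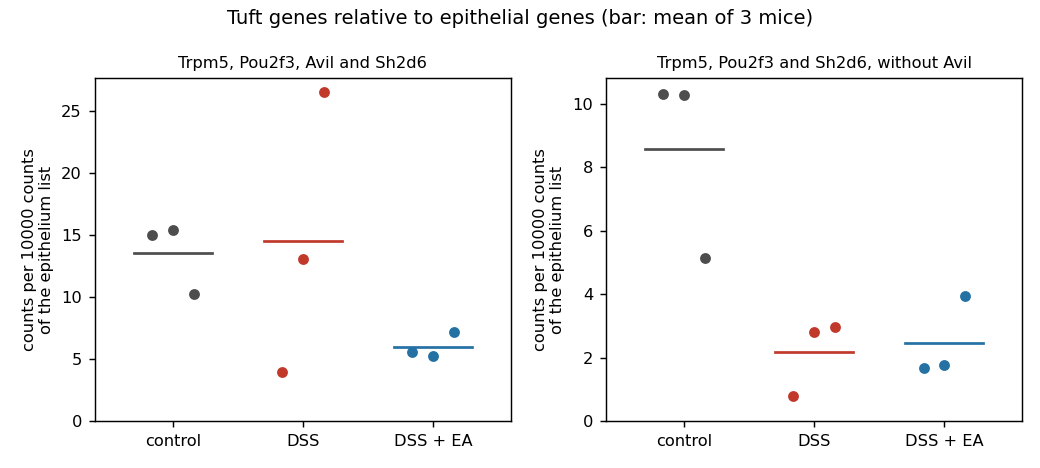
Counts of tuft cell genes per 10000 counts of 10 epithelial genes (vertical axis from 0), 1 point per mouse with a bar at the group mean, for Trpm5, Pou2f3, Avil and Sh2d6 at the left and without Avil at the right. With Avil the DSS mice spread from 3.94 to 26.5, and without it all DSS and DSS + EA mice are below the control mice. The sum without Avil was chosen after the values were seen, from genes already lower in CPM in every DSS mouse than in every control mouse.

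IL-25 of tuft cells acts in a circuit with type 2 lymphoid cells, whose IL-13 acts back on the epithelium. Of the 17 genes of this circuit that were listed, 11 were tested, 6 of them higher and 2 lower with DSS, against 21.5% and 19.5% of all genes, and the median log2 fold change was 2.52. The receptor of IL-25 divided. Il17rb, the subunit that binds IL-25 and was named here after its values were seen, was read 15, 14 and 9 times in the control mice, 3, 1 and 0 times in the DSS mice and 5, 4 and 8 times in the DSS + EA mice. The groups did not overlap, with the DSS + EA mice between the others. Il17rb was lower with DSS (log2 fold change -3.30, SE 0.64, adjusted p = 0.00312, edgeR), which passed without each mouse in turn. Il17rb passed the filter through its level in the control group, and was also called lower without the filter. Against the DSS group it was higher with EA (2.22, SE 0.71, adjusted p = 0.0356), a call lost without any of 8 of the 9 mice (adjusted p 0.0536 to 0.129, every one but DSS mouse 1) and in DESeq2 (0.0629). Il17ra, the subunit shared with IL-17A and also abundant in myeloid cells, moved the other way. It rose from 4.09 ± 0.75 to 27.4 ± 18.2 CPM with DSS (2.74, SE 0.58, adjusted p = 0.00466) and was at 2.43 ± 1.56 CPM with EA (-3.46 against DSS, SE 0.62, adjusted p = 0.0029).

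The alarmin Il33, which acts on the same lymphoid cells, was read 7, 15 and 12 times in the control mice, 117, 216 and 535 times in the DSS mice and 102, 56 and 65 times in the DSS + EA mice. It was higher with DSS (4.49, SE 0.65, adjusted p = 0.000674), lower with EA than with DSS (-1.79, SE 0.55, adjusted p = 0.0294) and higher with EA than in the control group (2.71, SE 0.64, adjusted p = 0.0488, edgeR). Its receptor Il1rl1 had 6.43 ± 3.23, 76.6 ± 62.8 and 36 ± 3.49 CPM and was higher than in the control group in both (3.59, adjusted p = 0.00137, and 2.51, adjusted p = 0.0478). Il4ra, the receptor chain for IL-4 and IL-13, was at 23.4 ± 4.35, 250 ± 88.5 and 58.6 ± 5.52 CPM, higher with DSS (3.42, SE 0.30, adjusted p = 6.15e-05), lower with EA than with DSS (-2.09, SE 0.28, adjusted p = 0.0009) and higher with EA than in the control group (1.32, SE 0.29, adjusted p = 0.0356). Of the 11, 1 was higher and 4 were lower with EA than with DSS (17.2% and 18.3% of all genes). Without DSS mouse 3 or any 1 of the DSS + EA mice 2 were lower, as Il33 and Arg1 lost their calls (adjusted p 0.0523 to 0.0973). The 3 calls against the control group (3% of all genes were called higher) were lost without any of the control or DSS + EA mice, which left none of the list called.

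Arg1, an enzyme of macrophages and lymphoid cells, was at 2.7 ± 1.49, 114 ± 130 and 21.2 ± 2.95 CPM, higher with DSS (5.45, SE 0.90, adjusted p = 0.00134) and lower with EA (-2.43, SE 0.74, adjusted p = 0.0282). Crlf2, a subunit of the TSLP receptor, was higher with DSS only among the comparisons that passed (2.52, SE 0.74, adjusted p = 0.0214). Retnlb, a goblet cell product that IL-13 induces, was at 2302, 7882 and 3040 CPM in the control mice, 1597, 171 and 61.6 CPM in the DSS mice and 1234, 1773 and 1600 CPM in the DSS + EA mice. It was lower with DSS (-2.85, SE 1.00, adjusted p = 0.0439), and this call was lost without any of 8 of the 9 mice, the exception being DSS mouse 1. Il13ra1, the other chain of the IL-13 receptor, passed in no comparison. Il13 and Il9 themselves had no count in any mouse, which at this depth does not show their absence. The fibroblast genes, summed, were at 755 to 826 CPM in the control group, 3908 to 6508 CPM in the DSS group and 1539 to 1618 CPM in the DSS + EA group, with 6 of 6 higher with DSS and 4 lower with EA than with DSS, against 21.5% and 18.3% of all genes tested. The smooth muscle genes were at 2822 to 3499, 1127 to 2159 and 2192 to 2255 CPM, with 5 of 6 lower with DSS, against 19.5% of all genes tested. The part of the cell makeup in the levels of Il33, Il1rl1 and Arg1 was not tested.

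**Figure D5:**
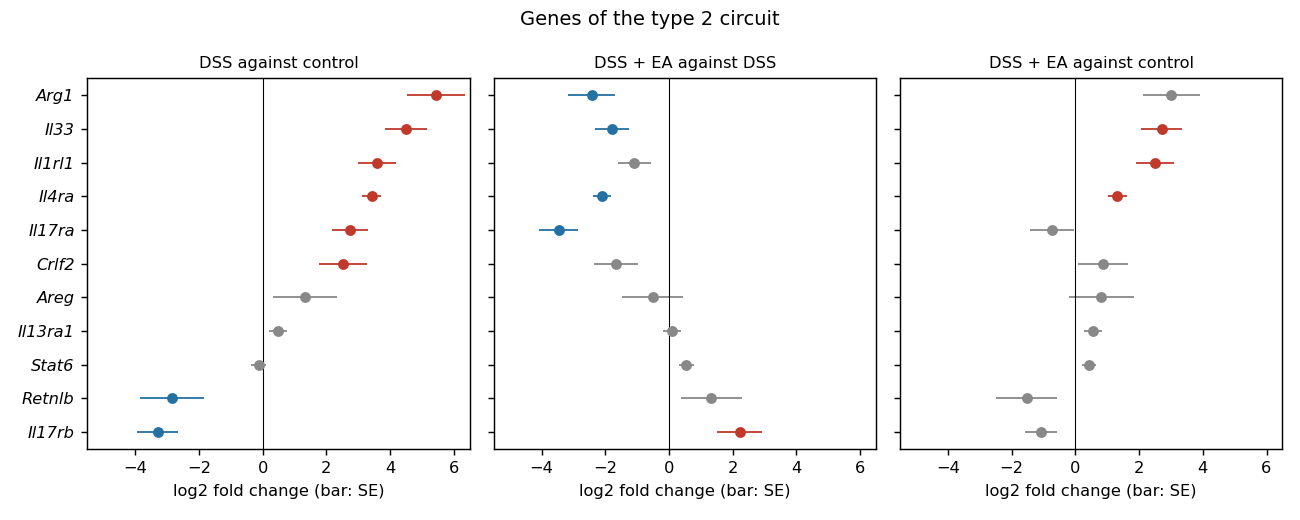
Log2 fold change with standard error of the 11 genes of the type 2 circuit tested in the fit with the filter, in the 3 comparisons. Red marks genes called higher, blue genes called lower and grey those not called. Il17rb is the lowest and Arg1 the highest of the list for DSS against control. The comparisons share groups and are not independent.

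Among Trpm5, Pou2f3, Avil and Sh2d6, Avil had the highest mean count (7.22 per library), and the genes with the profile most like it over the 9 mice were named. By Pearson's r of log2 CPM with a prior count of 2, the 10 nearest were Cib2 (0.958), Gtpbp6 (0.945), Matk (0.943), Rtn1, Mpv17l2, Fbxl6, Snf8, the unnamed model ONT.8205, Hmg20b and Trappc6b (0.923 for the last). Matk is the 1 gene among them that the tuft cell lists also hold. These values describe 9 mice that share groups and hold few counts for Avil, and they carry no test. Reads of Avil cannot be told apart from those of Tsfm, and the difference of Avil between DSS and control did not pass. The genes named are thus not shown to follow tuft cells.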

How the data were processed

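Total RNA of the mouse colon was made into full-length cDNA and sequenced on a Nanopore PromethION (9 libraries, 3 per group). The authors deposited raw gene counts with symbols. The build is mm10 per the submitters' processing notes, and the aligner, annotation and strand setting behind the table are not given in the sources used here. Of 27733 lines, 14 without counts were skipped, and 5620 of the 27719 genes had no count. The libraries held 2627695 to 4235576 counts.

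Counts were tested with edgeR 4.0.16 (quasi-likelihood F test, TMM, filterByExpr, prior count 0.125) in R 4.3.3, in one fit of all 9 libraries, and genes with a Benjamini-Hochberg adjusted p under 0.05 were called. The same fit without the filter on low counts served for the 5 members under it. CPM used TMM-adjusted totals. SE was the absolute log2 fold change over the square root of F. Intervals of count ratios were exact (95%) and cover counting error only, as PCR reads carry no molecular identifiers. Folds given as at least put a group at 0 at a floor of 3 counts and take the counts of the other group as exact. The script was tested on simulated data. The members and lists were chosen with earlier results of these data known. From each list, up to 4 genes of the highest mean CPM and up to 3 of the smallest P per comparison were named, besides counts of 5 or fewer, whose genes were named after their values were seen. The lists were tuft cell genes (signalling, transcription, mediators, surface and structure), the type 2 circuit, the leukotriene pathway, and markers of epithelium, goblet and enteroendocrine cells, neutrophils, macrophages, mast cells, eosinophils, lymphocytes, enteric neurons, fibroblasts, smooth muscle and pancreatic acini. Positions are from GENCODE M21 (GRCm38) and promoters from RefSeq. Alternatives were DESeq2 1.42.0, RLE, library totals, scaling to the epithelial genes, other filters and thresholds, the replicate block and leaving out each mouse.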

Additional observations from a re-analysis of the deposited data

How the results depend on the processing

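Of the members called for DSS against control (2 with the filter), the count was 4 in DESeq2 and 4 with no filter on low counts, where Trpm5 and Sh2d6 were added, 1 with a mean of at least 20 counts and 1 by the thresholds of a log2 fold change beyond 2.5 and P under 0.01, both leaving Alox5ap. Leaving out each mouse gave 1 to 3 with the filter and 2 to 5 without it, the 2 without control mouse 1. For DSS + EA against DSS (2), the count was 1 with a mean of at least 20 counts. With DSS + EA mouse 1 alone of its group, chosen after seeing that the other DSS + EA mice held pancreatic counts and assuming that the lone mouse varies like the others, it was 0 with the filter and 1 without it (Alox5ap). The values there stayed close, at -3.68 for Alox5ap (adjusted p = 0.089) and -3.05 for Alox5 (0.128). For DSS + EA against control (0), it was 1 (Alox5ap) when only the 2 groups compared were fitted, and 0 to 1 when leaving out each mouse, with the filter or without. Trpm5 and Alox5ap kept their DSS calls in each setting that tested them.

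Signs turned for Avil under scaling to the epithelial genes (1.12, DSS against control) and with DSS + EA mouse 1 alone (0.10, DSS + EA against DSS), for Sh2d6 under that scaling (-0.32, DSS + EA against DSS), for Cd24a (0.73) and Pla2g4a (-0.68, DSS + EA against DSS) under it, and for Dclk1, DSS + EA against control, under it (0.0266), without control mouse 1 (0.0201), without DSS + EA mouse 3 (0.0563, the mice left out in turn giving -0.42 to 0.0563) and with DSS + EA mouse 1 alone (0.17). None of these values passed before the change except Cd24a and Pla2g4a. The cause was not tested. That scaling moved the median of all genes by 1.52 with the filter and 1.51 without it for DSS against control, and by -1.34 and -1.36 for DSS + EA against DSS, so these changes of sign and the losses below hold relative to the epithelial genes only.

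Among the further genes, scaling to the epithelial genes ended the DSS calls of Spib (adjusted p = 0.721), Atp2a3 (0.212), Ildr1 (0.732), Dpep1 (0.296) and, without the filter, 1810046K07Rik (0.0599) and Rgs13 (0.0795). It ended the DSS + EA against DSS calls of Spib (0.29), Atp2a3 (0.398), Ildr1 (0.196), Inpp5j (0.188), Dpep1 (0.8765) and Il17rb (0.161). For DSS + EA against control it ended those of Il4ra (0.317) and Il33 (0.0597). DESeq2 did not call Spib with DSS (0.0709) or Dpep2 with EA (0.153). When only the 2 groups compared were fitted, Ildr1 (0.074) and Retnlb (0.0841) lost their DSS calls, and Atp2a3 (0.0973), Pla2g4a (0.0579), Arg1 (0.0555) and Il33 (0.0539) lost theirs for DSS + EA against DSS.

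With the replicate number as a block, 2, 2 and 0 members were called in the 3 comparisons, as in the fit without a block. Among the further genes, the block ended the DSS calls of Retnlb (adjusted p = 0.0517) and, without the filter, Rgs13 (0.0726), the DSS + EA against DSS calls of Il17rb (0.0717) and Il33 (0.0673), and the DSS + EA against control calls of Il33 (0.051), Il1rl1 (0.0973) and Il4ra (0.0698). Deviations of mice with the same number correlated between -0.16 and 0.11. These few correlations also hold differences within a group, such as those of DSS mouse 1. They cannot show whether mice with the same number shared more than it.

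Depth was the main limit: 5 of the 8 genes lay under the filter, and a count of 0 allows 0.647 to 1.14 CPM in a library.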
